A study of Mus musculus with 4 samples.

Results

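The genes that give lymphatic endothelial cells their identity were examined in cardiac endothelial cells of control mice and of mice labelled Gata4 KO. The set was given by symbol and holds 8 genes: Prox1, Flt4, Lyve1, Pdpn, Thy1, Mmrn1, Reln and Fgl2. All 8 were found among the 38087 genes of the deposited tables and all 8 were among the 14470 whose value differed between libraries, so that none was lost to a filter. Cells positive for eGFP and for CD31 (PECAM1) were sorted from the interstitial cells of the cardiac ventricles of C57BL/6 mice, and their total RNA was sequenced. The control mice carried a Tie2-CreERT2 transgene, a tamoxifen-activated Cre recombinase under Tie2 promoter and enhancer sequence, and a Cre-dependent eGFP reporter in the Rosa26 locus. The Gata4 KO mice carried, by the labels' protocols, the same transgene and reporter and LoxP-targeted Gata4. Both groups received tamoxifen in the chow at 40 mg/kg body weight over 4 weeks, starting at an age of 4 weeks, until cell isolation at 8 weeks. There were 2 libraries in each group, all from the same sequencing run.

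Lymphatic vessels drain fluid and immune cells from the heart wall. Their endothelium arises largely from veins, where the homeobox factor PROX1 switches on the lymphatic programme and VEGF-C, acting through its receptor VEGFR3 (the product of Flt4), drives growth of the vessels. Lymphatic endothelial cells carry CD31, so a CD31 gate can include them beside the far more numerous blood endothelial cells. Several genes of the set are not restricted to them: Lyve1 is also expressed by resident macrophages, Pdpn and Thy1 by fibroblasts, Thy1 by T cells, Fgl2 by macrophages and T cells, and Mmrn1 by platelets.

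The deposited values are log2 values centred on each gene's own median over the 4 libraries. They show differences between libraries for a gene, not its level, and the pair of middle values of each gene lie at equal distances on either side of 0. Depth is unknown. Gata4 itself, a zinc-finger transcription factor gene, was at 0.48 and 0.14 in the controls, compared with -0.14 and -0.46 in Gata4 KO. This was a log2 difference of -0.61 (standard error 0.26, limma adjusted p = 0.663). Which exons these reads came from is not given, so the value is no full check of the deletion. Pecam1, which encodes the surface protein used for sorting, had a log2 difference of 0.066. Xist was tied at its lowest value in the controls, whereas Gata4 KO had 2.76 and 3.71, while the Y-linked gene Ddx3y had a log2 difference of -3.27 or lower, with both Gata4 KO libraries tied at its lowest value. Sex and genotype therefore cannot be told apart here. Control library names join a pair of numbers and Gata4 KO names hold a single one, so pooling cannot be told apart from genotype either.

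Prox1, Lyve1, Thy1, Mmrn1, Reln and Fgl2 had lower values in the Gata4 KO libraries. Flt4 did not, and Pdpn was higher in control 1 alone. Both Gata4 KO values lay below both controls in 7 of the 8 genes, against 17.3% of all tested genes, with Pdpn counted although its groups lay only 0.015 apart at their nearest. The median log2 difference over the 8 genes was -1.58, beside -0.0088 over all tested genes. The differences ran from -2.58 in Mmrn1 to -0.0041 in Flt4. No gene of the set passed an adjusted p of 0.05 in limma over all 14470 genes (0% of all tested genes passed lower and 0% higher). A log2 difference of -1 or lower was seen in 6 of the 8, against 3.59% of all tested genes. At an unadjusted p of 0.05, 6 of the 8 were lower, against 5.36% (776 genes) lower and 2.76% (399 genes) higher among all tested genes. In such bulk libraries, fewer lymphatic cells and less RNA per lymphatic cell cannot be told apart. An exact two-sided permutation test cannot give a p below 0.333 with 2 libraries against 2, and it gave 0.333 for each of the 7 and 1.0 for Flt4.

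**Figure D1:**
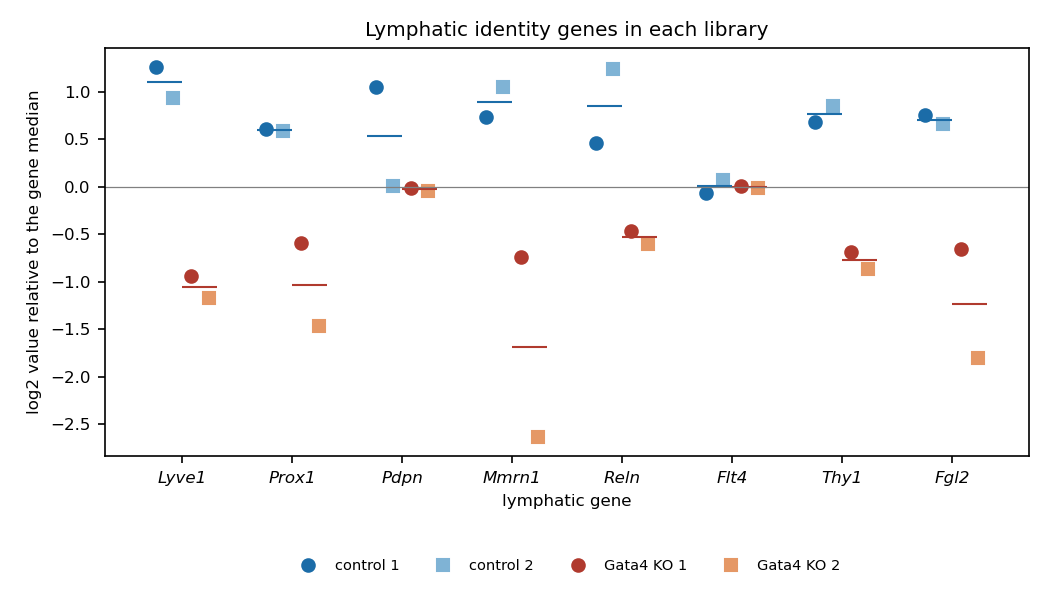
Log2 value relative to the gene's median (vertical axis) for each of the 8 lymphatic identity genes (horizontal axis) in each of the 4 libraries, with short lines at the mean of each group. In 7 genes both Gata4 KO libraries sit below both controls, closely so in Pdpn, while the 4 values of Flt4 lie between -0.066 and 0.074.

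Prox1 (ENSMUSG00000010175, mm10 chromosome 1, 190118035 to 190170714, minus strand) encodes the homeodomain transcription factor that specifies and maintains lymphatic endothelial fate. It was at 0.61 and 0.59 in the controls, compared with -0.59 and -1.47 in Gata4 KO. The controls were nearly equal and both Gata4 KO libraries were lower, Gata4 KO 2 more so. The mean and SD of the 2 libraries were 0.60 ± 0.013 for control and -1.03 ± 0.62 for Gata4 KO. The level was 3.09-fold lower in Gata4 KO, a log2 difference of -1.63 with a standard error of 0.35, a 95% interval of -2.53 to -0.73 and a limma adjusted p of 0.382. Without Gata4 KO 2 the difference was -1.19. A gene antisense to Prox1 (ENSMUSG00000079045) was at 0.043 and 1.03 in the controls, with both Gata4 KO libraries tied at its lowest value of -0.043. The log2 difference of this antisense gene, -0.58, came mostly from control 2. Strand-specific counting is not stated, so reads of the pair cannot be told apart.

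Flt4 (ENSMUSG00000020357, chromosome 11, 49609263 to 49652739, plus strand) encodes VEGFR3, the receptor for VEGF-C and VEGF-D. Its values were -0.066 and 0.074 in the controls and 0.0093 and -0.0093 in the Gata4 KO libraries. The Gata4 KO values lay between the control values. The log2 difference was -0.0041 (standard error 0.22, limma adjusted p = 0.997), and its 95% interval of -0.56 to 0.55 leaves room for a change of either sign. The 95% intervals of Lyve1, Prox1, Mmrn1, Thy1 and Fgl2 lay wholly below that of Flt4, and that of Reln, whose upper end was -0.54, overlapped it narrowly.

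Among the surface proteins, Lyve1 (ENSMUSG00000030787, chromosome 7, 110850607 to 110863239, minus strand) encodes the hyaluronan receptor through which lymphatic endothelium binds hyaluronan and immune cells. It was at 1.27 and 0.94 in the controls, compared with -0.94 and -1.17 in Gata4 KO. The groups were separated by 1.88 log2 units at their nearest, the widest separation of the 8 genes, and each group's libraries lay within 0.33 of each other. The level was 4.45-fold lower, with a log2 difference of -2.15 (standard error 0.25, 95% interval -2.79 to -1.52, limma adjusted p = 0.188). By p it ranked 25 of 14470. The limma adjusted p passed in 2 of 9 alternatives, at 0.0286 with tied genes left out and at 0.0393 with a mean trend. The values are centred by gene, so a gene's mean is not its level and the mean trend has no clear meaning here. With a library left out the log2 difference ran from -2.32 to -1.99.

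Thy1 (ENSMUSG00000032011, chromosome 9, 44043384 to 44048579, plus strand) encodes a GPI-anchored surface glycoprotein that marks lymphatic endothelium and other cells. It was at 0.68 and 0.85 in the controls, compared with -0.68 and -0.86 in Gata4 KO. Libraries of a group differed by at most 0.18 and the groups lay 1.37 apart at their nearest. The level was 2.91-fold lower (log2 difference -1.54, standard error 0.23, 95% interval -2.12 to -0.96, limma adjusted p = 0.284).

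Pdpn (ENSMUSG00000028583, chromosome 4, 143267431 to 143299564, minus strand) encodes podoplanin, the mucin-type glycoprotein that binds the platelet receptor CLEC-2 and keeps lymph and blood vessels apart. Control 1 had a value of 1.05 and control 2 of 0.0077, compared with -0.0077 and -0.045 in Gata4 KO. Only control 1 stood apart, and the groups lay 0.015 apart at their nearest. The log2 difference of -0.56 (standard error 0.39, 95% interval -1.57 to 0.46, limma adjusted p = 0.842) became -0.034 without control 1 and -1.08 without control 2.

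Among the secreted proteins, Mmrn1 (ENSMUSG00000054641, chromosome 6, 60924976 to 60989378, plus strand) encodes multimerin, a large multimeric adhesive glycoprotein of lymphatic endothelium and of platelets. It was at 0.73 and 1.06 in the controls, compared with -0.73 and -2.64 in Gata4 KO. Both Gata4 KO libraries were lower, but they differed from each other by 1.90, the widest gap within a group in the set. The level was 5.98-fold lower (log2 difference -2.58, standard error 0.65, 95% interval -4.25 to -0.91, limma adjusted p = 0.424). Leaving out Gata4 KO 2 gave -1.63, and leaving out Gata4 KO 1 gave -3.53.

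Reln (ENSMUSG00000042453, chromosome 5, 21884454 to 22344702, minus strand) encodes reelin, a matrix glycoprotein known from neuronal migration and secreted by lymphatic endothelium. It was at 0.46 and 1.24 in the controls, compared with -0.46 and -0.60 in Gata4 KO. Here the Gata4 KO libraries were close together and control 2 was the highest. The level was 2.61-fold lower (log2 difference -1.38, standard error 0.33, 95% interval -2.22 to -0.54, limma adjusted p = 0.407).

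Fgl2 (ENSMUSG00000039899, chromosome 5, 21372642 to 21378374, plus strand) encodes a fibrinogen-like protein that exists as a membrane prothrombinase and as a secreted immune regulator. It was at 0.76 and 0.66 in the controls, compared with -0.66 and -1.80 in Gata4 KO. The controls were close, and Gata4 KO 2 was the lowest library, as in every gene of the set but Flt4. The level was 3.83-fold lower (log2 difference -1.94, standard error 0.42, 95% interval -3.03 to -0.85, limma adjusted p = 0.383). Without Gata4 KO 2 the difference was -1.36. Fgl2 lies within Ccdc146, a gene on the opposite strand with the same value in all 4 libraries.

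Ordered by difference, the lowest first, Mmrn1 stood at rank 22 of the 14470 tested genes, Lyve1 at 46, Fgl2 at 67, Prox1 at 136, Thy1 at 169 and Reln at 221. Pdpn followed at 1539 and Flt4 at 7335, near the middle. Neighbours in this order from Mmrn1 to Reln had overlapping 95% intervals. A ratio within a library does not depend on its scaling. Expressed relative to Flt4 in the same library, Lyve1 was at 1.33 and 0.86 in the controls, compared with -0.95 and -1.16 in Gata4 KO. Prox1 relative to Flt4 was at 0.67 and 0.52 against -0.60 and -1.46. Pdpn relative to Flt4 was at 1.12 and -0.067 against -0.017 and -0.036, so that its groups overlapped. Relative to Pecam1, the log2 difference was -2.22 for Lyve1, -1.69 for Prox1, -2.65 for Mmrn1 and -0.070 for Flt4. Each of these contrasts gave an exact permutation p of 0.333, apart from Pdpn relative to Flt4 and Flt4 relative to Pecam1, both at 1.0.

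**Figure D2:**
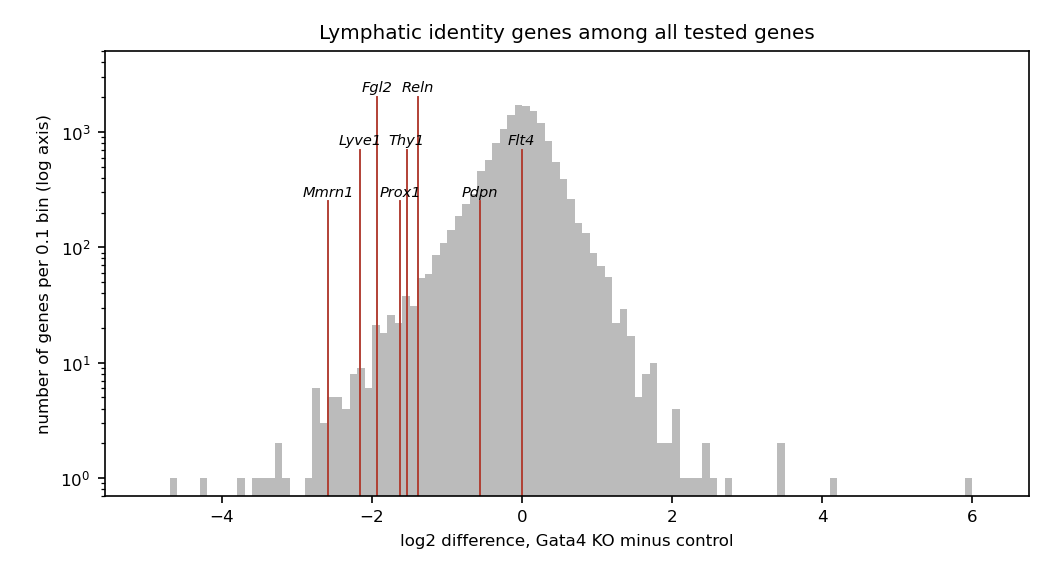
Histogram of the log2 difference, Gata4 KO minus control (horizontal axis, bins of 0.1), over the 14470 tested genes, with the number of genes on a log axis and a red line for each lymphatic identity gene. Mmrn1, Lyve1, Fgl2, Prox1, Thy1 and Reln lie between -2.58 and -1.38 in the lower tail, Pdpn at -0.56 and Flt4 at -0.0041.

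The sequence before the start of these genes was searched for the motif of GATA factors, because Gata4 was the deleted gene and most of the set had lower values together. RefSeq promoters on GRCm38.p6, the build also called mm10, were matched for 6 of the 8 genes by symbol, and the 250 bases before the start were read. The motif was searched on both strands as AGATAA or with G as its last letter, AGATAG, and in the forms that begin with T, which are TGATAA and, with G as the last letter, TGATAG. It was present in Mmrn1 (1 match, TGATAA, first base 34 bases before the start) and in Pdpn (1 match on the opposite strand, read here as CTATCA, first base 242 bases before the start). No match lay in the windows of Prox1, Reln, Flt4 and Fgl2. Of all 32851 promoter windows of this length, 26.5% held a match. The SOX motif AACAAT was found in Mmrn1 only (9.42% of all windows), and the nuclear receptor motif AGGTCA in Pdpn only (14.0% of all windows). The 3 windows below are those of the gene with the largest difference, of the transcription factor gene and of the gene in which control 1 alone stood apart. They run 5′ to 3′ on the strand of the gene, with matches to the GATA motif in capitals. For Prox1 the more upstream of 2 listed starts was used, and the window of the other was not read. Bases shortly after the start used were found in no Prox1 transcript of the annotation used for coordinates, unlike those of the other genes searched. The RefSeq start of Mmrn1 lies inside the longer gene of that annotation.
Mmrn1, chr6:60944067-60944316, plus strand: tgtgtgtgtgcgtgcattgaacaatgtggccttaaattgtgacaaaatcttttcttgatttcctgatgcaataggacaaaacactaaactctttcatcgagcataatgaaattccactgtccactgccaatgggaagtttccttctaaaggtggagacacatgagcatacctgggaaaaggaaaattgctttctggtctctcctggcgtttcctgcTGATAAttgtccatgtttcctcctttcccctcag
Prox1, chr1:190170828-190171077, minus strand: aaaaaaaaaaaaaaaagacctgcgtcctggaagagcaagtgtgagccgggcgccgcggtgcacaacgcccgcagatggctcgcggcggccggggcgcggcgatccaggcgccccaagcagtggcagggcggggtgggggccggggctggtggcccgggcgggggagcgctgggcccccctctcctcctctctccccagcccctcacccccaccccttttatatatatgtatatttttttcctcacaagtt
Pdpn, chr4:143299565-143299814, minus strand: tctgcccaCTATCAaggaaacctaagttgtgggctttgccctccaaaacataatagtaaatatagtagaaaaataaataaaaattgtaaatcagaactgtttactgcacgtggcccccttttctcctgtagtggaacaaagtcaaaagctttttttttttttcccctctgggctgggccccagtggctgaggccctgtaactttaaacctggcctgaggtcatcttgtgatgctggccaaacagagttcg
A match is a string of letters and not a bound site. The windows differ in base composition, with 42.4% G or C in Mmrn1, 43.2% in Pdpn, 64.8% in Prox1 and 68.4% in Flt4. The Flt4 window lies inside the GENCODE gene, after its annotated start.

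The genes most like each member were found as the 3 with the smallest Euclidean distance over the 4 centred log2 values. Lyve1 was nearest to the matrix gene Tnxb (distance 0.053), then Kcnt2 (0.11) and Olfml1 (0.195). Nearest to Prox1 were Gm10393 (0.12), Gpm6a (0.16) and PLAC9 (0.24), and to Thy1 Cbr2 (0.18), Ninj1 (0.21) and Pkhd1l1 (0.22). Mmrn1 had few close genes: Ahsg at 0.40 and then Ccl21b at 0.73 and Ccl21c at 0.79. These encode copies of the chemokine CCL21, which lymphatic endothelium secretes to draw in dendritic cells. The Ccl21 copies are near-identical, so how reads were shared among them is uncertain. Fgl2 lay nearest to Gm10393 (0.36), Rnase4 (0.37) and Prox1 (0.38), the one case of a member among another's nearest genes. Reln lay nearest to a U6 small RNA gene (0.093, a family of many copies and uncertain), AU021092 (0.20) and Hand2 (0.22). Pdpn lay nearest to Ufsp2 (0.063), Tbc1d8b (0.11) and Ddx11 (0.13), and Flt4 to Xpo1 (0.038), Poldip3 (0.040) and Nfatc2 (0.043).

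The wider lymphatic programme was read from 5 lists of 75 genes, of which 65 varied and were tested. Kdr, Tek, Tie1, Cdh5, Cldn5 and Esam are also in the blood endothelial list used below, and Nfatc1 is in the endocardial list. The receptor, valve and junction, and transcription factor lists are therefore not independent of those lists, and not all of their genes are particular to lymphatic cells. None passed over all genes, 20 lay below both controls and 13 above both, and the median log2 difference was -0.057. Among all tested genes 17.3% lay below and 15.7% above both controls. The median was 0.026 with tied genes left out and 0.068 without Gata4 KO 1, so these lists together had no steady direction. Other lymphatic markers alone among the 5 lists kept a negative median, of -0.61 to -0.38, in all 9 alternatives. The median changed sign centred on blood endothelial markers for growth factors (-0.19), transcription factors (-0.16) and receptors (-0.12), and without Gata4 KO 1 for valve and junction genes (0.10). With a library left out, the growth factor median ran from -0.083 (without control 2) to 0.41 (without control 1). The transcription factor median ran from 0.0081 (without Gata4 KO 2) to 0.27 (without control 1) and 0.29 (without Gata4 KO 1).

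Other lymphatic markers were lower most often, with 11 of 16 tested below both controls and 1 above (median -0.40). At an unadjusted p of 0.05, 6 were lower and none higher. Ccl21a was at 0.66 and 1.32 in the controls, compared with -0.66 and -1.86 in Gata4 KO, a log2 difference of -2.25 (standard error 0.48, limma adjusted p = 0.382). As in every lymphatic identity gene but Flt4, its lowest value was in Gata4 KO 2. Cp, the ceruloplasmin gene, had a difference of -1.92, the growth factor gene Igf1 -1.56, the matrix gene Sned1 -1.14 and the polarity gene Pard6g -0.83. The guidance gene Sema3d was at least 2.15-fold lower, with both Gata4 KO libraries tied at its lowest value. Nts, which encodes neurotensin, had a value of 1.06 in the other direction, led by Gata4 KO 1. Differences nearer 0 were those of Sema3a (-0.39, Gata4 KO libraries tied at the lowest value), Stab1 (-0.26), Ackr2 (-0.15), Fxyd6 (-0.41), Timp4 (-0.36), Cd9 (0.026) and Ptx3 (-0.12, Gata4 KO libraries tied at the lowest value). Il7 (-0.13) and Cd209d (-0.50) were above their lowest value in control 1 alone. Stab2 and Cldn11 had the same value in all 4 libraries.

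Transcription factors of the lymphatic programme other than Prox1 showed no common direction (12 tested, 2 below and 5 above both controls, 3 higher at an unadjusted p of 0.05, median 0.055). Sox18 and Nr2f2, which encode the factors known to induce Prox1 in veins, had differences of 0.019 (95% interval -0.80 to 0.83) and -0.057 (-0.95 to 0.84). Values for Sox18 were -0.37 and 0.33 in the controls against -0.11 and 0.11, so that its groups overlapped. Foxc2, a factor gene of lymphatic valves, lay below both controls at -0.73, as did Maf at -0.84 with both Gata4 KO libraries tied at its lowest value. Above both controls lay Klf2, the gene of a flow-induced factor (0.86), Hhex (0.85), Elk3 (0.69), Gata2 (0.46) and Foxc1 (0.38). Of these, Hhex was at -0.41 and -0.44 in the controls and 0.43 and 0.41 in Gata4 KO (limma adjusted p = 0.424). Nfatc1 and Zeb1 had differences of 0.054 and 0.024, and Nr2f1, Tbx1 and Hoxd10 had the same value in all 4 libraries.

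Of the growth factors and their processing, 6 of 9 genes were tested, with 2 below and 2 above both controls (median 0.016). Vegfc, the main ligand of VEGFR3, had a difference of 0.16, with overlapping groups. Vegfd, the other ligand, was at 1.03 and 0.94 in the controls and tied at its lowest value of -0.94 in both Gata4 KO libraries. It was at least 3.82-fold lower (log2 difference -1.93, limma adjusted p = 0.188). The tied values have no spread, so that the error and the p of this gene may be understated. Adm, which encodes the lymphangiogenic peptide adrenomedullin, had a difference of 0.93, and Angpt2 0.31. Angpt1 was at -0.36 with both Gata4 KO libraries tied at its lowest value. Ccbe1, whose product activates VEGF-C processing, was at -0.13, with control 1 alone above its lowest value. Adamts3, Adamts14 and Hgf had the same value in all 4 libraries.

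Receptors and signalling genes had a median difference near 0, as Flt4 did (17 tested, 1 below and 2 above both controls, median 0.087). Their single differences ran from -0.41 to 0.44. Kdr, the VEGFR2 gene, had a difference of 0.44 and Nrp2, the VEGF-C co-receptor gene, 0.37. The angiopoietin receptor gene Tek had 0.087, Tie1 0.19, Nrp1 0.10, the adrenomedullin receptor genes Calcrl and Ramp2 0.15 and 0.036, Ackr3 0.23, the flow sensor gene Piezo1 0.0017 and the integrin genes Itga9, Itgb1 and Itga1 -0.13, 0.19 and 0.087. S1pr1 was at -0.13, the one receptor gene below both controls. Clec1b, which encodes the podoplanin receptor CLEC-2, and Syk, Lcp2 and Plcg2, which act downstream of it in platelets, had differences of -0.38, 0.23, -0.41 and -0.35. Of these, Lcp2 was above its lowest value in control 1 alone, and Syk was tied at its lowest value in control 2 and Gata4 KO 2. Centring on the blood endothelial markers lowered every difference by 0.21, and without control 2 the median of the receptor list was -0.037.

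Valve and junction genes had 4 of 14 tested genes below and 3 above both controls (median -0.15). Svep1, which encodes a matrix protein needed for lymphatic development, was at least 1.69-fold lower, and the fibronectin gene Fn1 had a difference of -0.63. Pkd1 and Emilin1 were at -0.43 and -0.18. Cldn5 (1.03), Gja1 (0.37) and Jam3 (0.16) lay above both controls. Gja4, Cdh5, Esam, Lama5, Vangl2, Fat4 and Dchs1 had overlapping groups, with differences of -0.43 to 0.12. Celsr1 had the same value in all 4 libraries.

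**Figure D3:**
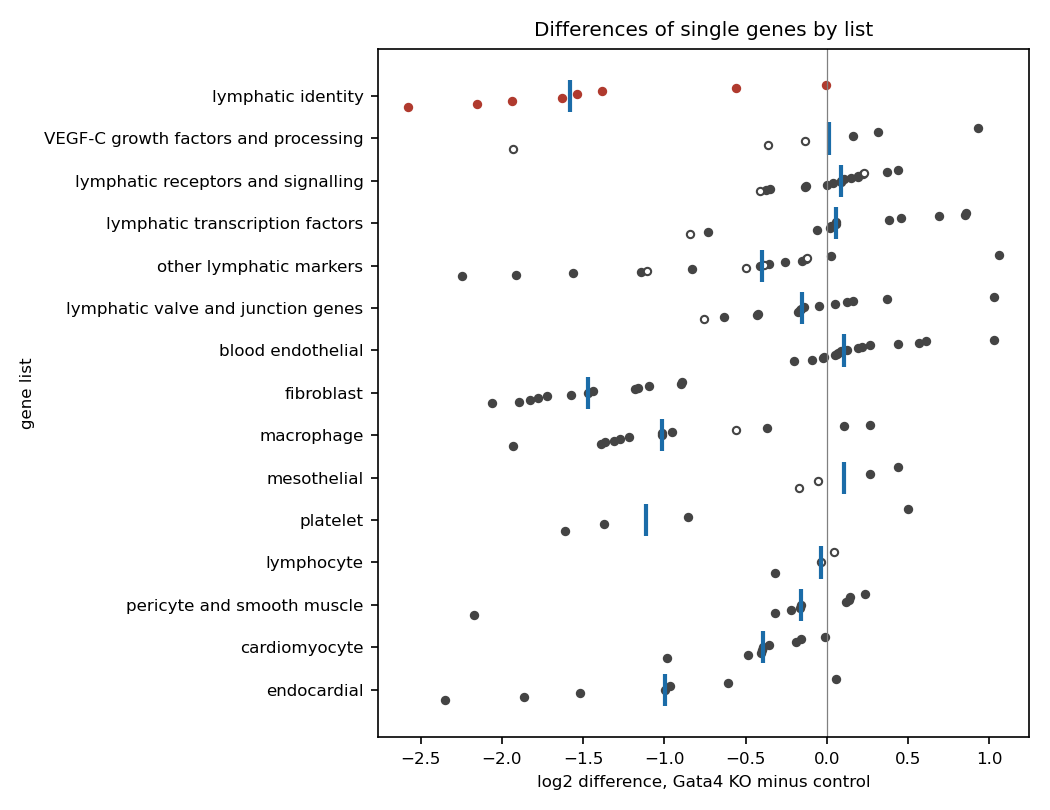
Log2 difference, Gata4 KO minus control (horizontal axis), of every tested gene of each list (rows), with blue bars at the list medians and open circles for genes with 2 or more libraries tied at their lowest value. The 8 lymphatic identity genes (red) have a median of -1.58, other lymphatic markers -0.40, and lymphatic receptors 0.087.

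Markers of other cells that a CD31 and eGFP gate could hold were also lower in Gata4 KO in several lists. Fibroblast markers lay below both controls in 13 of 13 genes (median -1.47, all tested genes -0.0088). The defining genes Pdgfra, Col1a1 and Dcn had differences of -0.89, -1.16 and -1.90, and Mfap4, the largest, -2.06. The list mean was 1.27 and 0.37 in the controls, compared with -0.38 and -0.90 in Gata4 KO, so that control 1 stood well above control 2. The mean over the 8 lymphatic identity genes was 0.69 and 0.68 in the controls and -0.51 and -1.07 in Gata4 KO. The near-equal control means are made of genes that differ in opposite directions, with Pdpn 1.05 higher in control 1 and Reln 0.77 higher in control 2. Macrophage markers lay below both controls in 11 of 13 genes (median -1.01), with Csf1r at -0.95, Adgre1 at -1.36, Mrc1 at -1.93 and C1qa at -1.39, but Cd68 at 0.27 and Cx3cr1 at 0.11. The list mean was 0.67 and 0.25 against -0.58 and -0.35. Beside Lyve1 at -2.15, the markers of resident macrophages Timd4 and Folr2 were at -1.01 each and Cd163 was at least 1.47-fold lower. The part of fibroblasts and macrophages in the lymphatic differences was not tested.

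Endocardial markers lay below both controls in 5 of 7 genes (median -0.99), with Tbx20 at -2.35, Cytl1 at -1.87 and Npr3 at -1.52, and Nfatc1 at 0.054. This list holds Gata4 itself. Its mean was 0.55 and 0.48 in the controls and -0.55 and -0.78 in Gata4 KO. The same order of libraries was seen in the lymphatic mean, but also in the fibroblast and cardiomyocyte means, among others. Platelet markers, set beside Mmrn1, were mixed over 4 tested genes: Ppbp at -1.61, Gp9 at -1.37, Pf4 at -0.86 with overlapping groups, and Gp1ba at 0.50. Itga2b and 2 other platelet genes had the same value in all 4 libraries. Of 10 lymphocyte markers, set beside Thy1 and Fgl2, 7 had the same value in all 4 libraries, among them Cd3d, Cd4 and Cd8a, and Cd3e and Lck were above their lowest value in 1 library each. Cd79a was at 1.20 and -0.57 in the controls, compared with -0.14 and 0.14 in Gata4 KO, so that its groups overlapped, and the list median of -0.035 became 0.31 without control 1.

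Of 9 cardiomyocyte markers 5 had both Gata4 KO values under the controls (median -0.39), led by Myh6 at -0.99, with Tnnt2 at -0.40, Actc1 at -0.19 and Myl3 at -0.48. That median was -0.15 without Gata4 KO 2 and -0.25 without control 1. Of 9 markers of pericytes and smooth muscle 4 lay below and 1 above both controls (median -0.16), with Cnn1 at -2.17, Tagln at -0.32 and Rgs5, Myh11 and Acta2 at -0.16, -0.22 and -0.17. Without control 2 that median was 0.020. Mesothelial genes, which can share Pdpn, had 4 of 7 tested, none below both controls and a median of 0.11 (-0.10 centred on blood endothelial markers), with Wt1 at 0.44, Krt19 at 0.26, Upk3b at -0.17 (above its lowest value in control 2 alone) and Msln constant; without Gata4 KO 1 the median was -0.014. Blood endothelial markers had 7 of 16 above both controls and none below, with a median of 0.10 that was -0.11 when libraries were centred on the same list. Among them Cdh5 was at 0.12, Kdr at 0.44, Fabp4 at 0.61 and Cldn5 at 1.03.

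**Figure D4:**
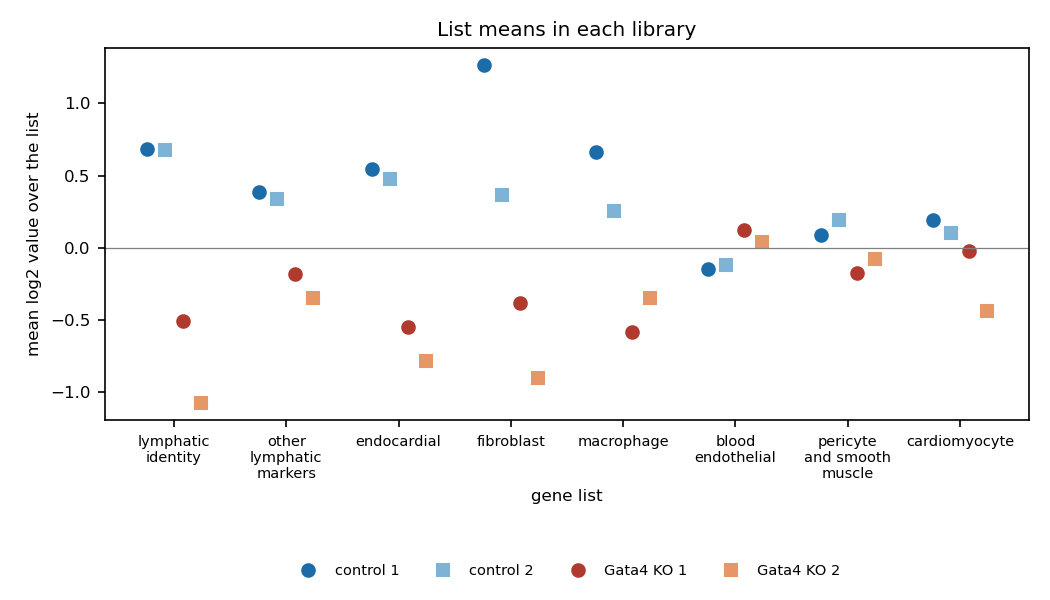
Mean log2 value (vertical axis) over the tested genes of 8 lists (horizontal axis) in each of the 4 libraries. The mean of the lymphatic identity genes is 0.69 and 0.68 in the controls, an average over genes that differ in opposite directions, and that of the fibroblast markers is 1.27 and 0.37, and blood endothelial markers lie between -0.14 and 0.12.

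The pattern of each gene over the 4 libraries was set against the mean pattern of each list with at least 7 tested genes, leaving the gene itself out. Prox1 lay nearest to the other lymphatic identity genes (Euclidean distance 0.48), then to endocardial (0.70) and fibroblast markers (0.92). Thy1 lay nearest to the same pair (0.38 and 0.43), ahead of macrophage (0.79) and fibroblast markers (0.82), and Fgl2 likewise (0.86 and 1.06, with fibroblast markers at 1.11). Lyve1 was about as near to fibroblast markers (0.84) as to the other lymphatic genes (0.88), with macrophage markers at 1.27. Reln was nearest to endocardial markers (0.79) and Pdpn to macrophage markers (0.79). Flt4 was about as near to blood endothelial markers (0.24) as to pericyte and smooth muscle markers (0.28), and 1.75 from the other lymphatic genes. Mmrn1 was far from all lists, at 1.86 or more, as its Gata4 KO 2 value was so low. These distances describe 4 libraries and carry no test.

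**Figure D5:**
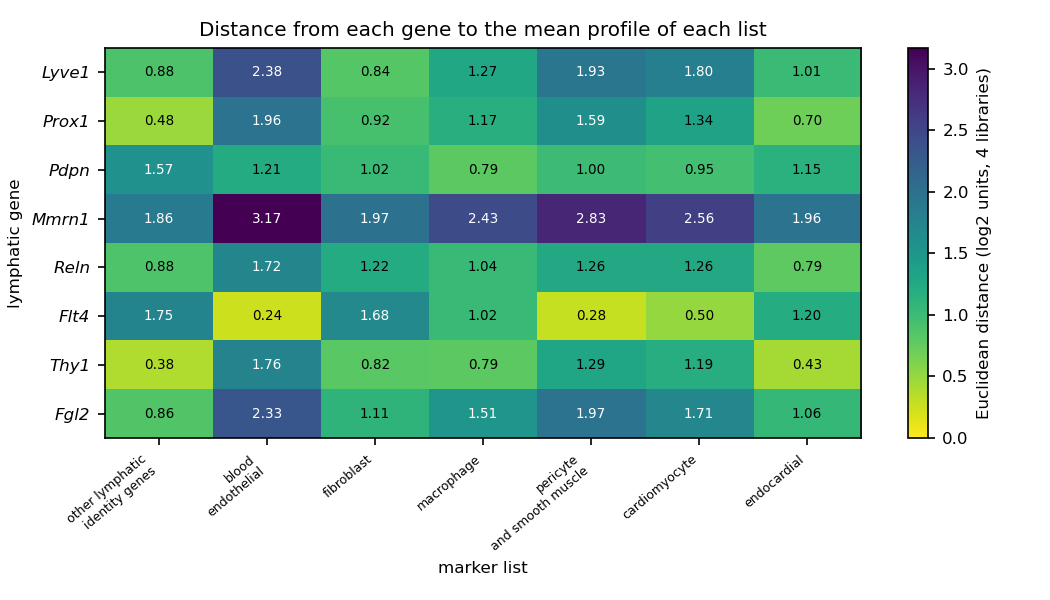
Euclidean distance over the 4 centred log2 values (colour and printed number) between each lymphatic identity gene (rows) and the mean of each marker list (columns). Prox1 and Thy1 are nearest to the other lymphatic identity genes (0.48 and 0.38). Flt4 is nearest to blood endothelial markers (0.24), closely followed by pericyte and smooth muscle markers (0.28).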

How the data were processed

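RNA was measured in 2 control and 2 Gata4 KO libraries, grouped by the labels; replicate numbers only follow deposition order. Log2 values of each library were deposited by the authors as 2 tables, split by the sign of the change. Per the file headers, they were exported with fold changes and Ensembl gene annotation. The deposited signed fold change was not used. The authors' log2 fold change matched the difference between group means (largest gap 3e-07). Per the submitters' processing notes the build was mm10. Not given in the sources used here were the aligner, the quantification and how libraries were normalized. Depth is unknown. The genotype label reads the same in both groups, and the deletion is given by the source and cell labels. Values were centred by gene (median 0, tolerance 1e-05). Of the tested genes, 2576 had 2 or more libraries tied at the lowest value (tolerance 2e-06); where both Gata4 KO libraries are tied, a printed fold is written as "at least" and a printed difference is a bound, and such genes enter medians at that bound.

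Both tables were joined (38087 genes; 23617 with equal values in all 4 libraries were not tested). limma 3.58.1 in R 4.3.3 (lmFit, eBayes without trend, two-sided, Benjamini-Hochberg over 14470 genes, threshold 0.05) was used, with 2.96 prior and 2 residual degrees of freedom, and was tested on simulated data. Whether libraries came from separate animals is not stated, so p-values measure only the spread between these libraries. Intervals are 95% moderated intervals. Coordinates are from GENCODE M21 on mm10, promoters from RefSeq on GRCm38.p6. Vegfd, Adgre1, Piezo1, Ackr2 and Ackr3 were found under older symbols. Lists are described by counts and medians. Named genes were all members, the genes of the other lymphatic lists (some are not reported here by name), the first 3 and the 2 largest of each marker list, and the 3 nearest genes of each member; some further list genes (Timd4, Folr2, Cd163, Cx3cr1, Cd4, Cd8a, Gp1ba) and Xist and Ddx3y were named after their values were seen. Members and lists were chosen with earlier results of these data known. Alternatives were a mean trend, a robust prior, tied genes left out, 2 re-centrings of libraries, and each library left out.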

Additional observations from a re-analysis of the deposited data

How the results depend on the processing

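Lyve1, Prox1, Mmrn1, Reln, Thy1, Fgl2 and Pdpn had negative differences in all 9 alternatives, and Lyve1 alone passed, in 2 of them. Both Gata4 KO values of each lay below both controls, so leaving out a library could not turn the sign. A mean trend, a robust prior and leaving out tied genes do not change a difference. Only the 2 re-centrings could have turned a sign, so the common sign is no separate evidence. The mean trend among these alternatives cannot follow expression level, because the values are centred by gene. Over all genes, limma called 0 genes at an adjusted p of 0.05 but 27 with a mean trend, 51 with tied genes left out, 7 with a robust prior, 7 with libraries centred on the median of all genes and 16 centred on blood endothelial markers; it called 0 in each fit that left out a library. At an unadjusted p of 0.05, 776 genes were lower and 399 higher. Centred on blood endothelial markers there were 1319 and 167, and leaving out a library gave 358 to 1398 lower and 275 to 874 higher. The median of the 8 genes (-1.58) was -1.79 centred on blood endothelial markers and -1.85 to -1.34 with a library left out, and 7 to 8 of them lay below both controls. The median of the other lymphatic genes (-0.057) was 0.026 with tied genes left out, which drops genes with low values in Gata4 KO, -0.27 centred on blood endothelial markers and -0.14 to 0.068 with a library left out. Of these genes 20 lay below both controls, 13 with tied genes left out, 28 centred on blood endothelial markers and 21 to 32 with a library left out. With a library left out its group is a lone library, so lying below is easier to meet. Centring on blood endothelial markers lowers every difference. The share of all tested genes was not computed in these settings, so the counts of both gene sets have no background there. Flt4, at -0.0041, was 0.012 centred on the median of all genes, -0.22 on blood endothelial markers and -0.074 to 0.066 with a library left out. Centred on blood endothelial markers, the receptor median was -0.12, the blood endothelial median -0.11 and the mesothelial median -0.10. With a library left out these medians ran from -0.037 to 0.17, 0.10 to 0.15 and -0.014 to 0.22, and the pericyte median from -0.17 to 0.020. Centring on blood endothelial markers also turned the growth factor (-0.19) and transcription factor (-0.16) medians. A fit on 3 libraries has a lone library in a group, assumed to vary like the others. The cause of these shifts was not tested. No paired analysis was possible because the labels give no shared replicate numbers. Depth is unknown, so the counting error of these values cannot be given.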
